A study of Homo sapiens with 4 samples.

Results

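HIF1A and 9 genes of the hypoxia response were followed in BICR10, an established line of human head and neck cancer. The 10 genes were taken by their symbols from the 60623 gene rows of the deposited count files, and all of them had enough counts to be tested. They are the 2 HIF alpha subunits (HIF1A and EPAS1), a pair of oxygen sensors (EGLN1 and EGLN3) and 6 target genes outside glycolysis (CA9, CA12, VEGFA, ADM, NDRG1 and BNIP3). Messenger RNA was sequenced from BICR10 cells transduced by lentivirus with a control hairpin (shControl) or a hairpin against YEATS2 (shYEATS2), the reader of histone crotonylation studied here, with 2 libraries in each condition. All cells, shControl included, were infected in the presence of polybrene and selected with 1 μg/mL puromycin for 3 days. The methods list a pair of YEATS2 hairpins, and the labels leave unstated which one a given shYEATS2 library received. The growth protocol gives a humidified incubator at 5% CO2 and names no low-oxygen arm, so the levels below are those of cells in standard culture.

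Hypoxia-inducible factors are pairs of an oxygen-labile alpha subunit and the stable partner ARNT. With oxygen present, the prolyl hydroxylases of the EGLN family mark the alpha subunit for binding by VHL and for destruction, so that control is exerted mainly on the protein and not on its mRNA. When oxygen falls, the pair binds hypoxia response elements with the core ACGTG or GCGTG and raises genes for angiogenesis, pH control, mitophagy and glycolysis, together with EGLN3 and other feedback genes. CA9 is a surface carbonic anhydrase that is widely used as a marker of hypoxia in solid tumours of the head and neck.

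The promoter windows of the 3 genes whose window held the core ACGTG are shown so that the core can be seen in its place. They were chosen by the core and not by their change, and the call of EGLN1 depended on the setting, as given below. They come from RefSeq on GRCh38.p14, run 5′ to 3′ on the strand of the gene from 250 bases before to 50 bases after its start, and carry every ACGTG or GCGTG of either strand in capitals (CACGT and CACGC are the same cores read on the other strand). CA9 lies on the plus strand of chromosome 9 and its window is chr9:35673678-35673977. BNIP3 lies on the minus strand of chromosome 10 with the window chr10:131981874-131982173, and EGLN1 on the minus strand of chromosome 1 with the window chr1:231422238-231422537.
CA9: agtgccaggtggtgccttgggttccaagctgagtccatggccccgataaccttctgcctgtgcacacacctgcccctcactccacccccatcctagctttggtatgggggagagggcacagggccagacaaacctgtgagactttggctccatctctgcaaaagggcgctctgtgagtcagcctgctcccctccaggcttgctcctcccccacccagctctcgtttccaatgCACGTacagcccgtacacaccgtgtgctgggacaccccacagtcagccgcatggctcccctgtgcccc
BNIP3: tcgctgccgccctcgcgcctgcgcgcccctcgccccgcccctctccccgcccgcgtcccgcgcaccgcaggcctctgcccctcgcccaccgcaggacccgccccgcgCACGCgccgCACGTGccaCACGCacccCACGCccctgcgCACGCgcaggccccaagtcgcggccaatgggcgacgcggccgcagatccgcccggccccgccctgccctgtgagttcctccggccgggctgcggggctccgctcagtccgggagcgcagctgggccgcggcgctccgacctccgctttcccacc
EGLN1: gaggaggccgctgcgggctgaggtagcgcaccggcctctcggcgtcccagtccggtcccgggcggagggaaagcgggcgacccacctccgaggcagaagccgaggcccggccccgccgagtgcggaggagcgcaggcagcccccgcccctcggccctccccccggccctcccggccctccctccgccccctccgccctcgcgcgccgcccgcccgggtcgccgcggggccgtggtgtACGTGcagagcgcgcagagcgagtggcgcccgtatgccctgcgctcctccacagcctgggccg

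In the CA9 window the core begins 18 bases before the start, and in the EGLN1 window 13 bases before it. The BNIP3 window holds 6 matches, of which the 2 to ACGTG overlap as the palindrome CACGTG beginning 134 bases before the start. Of the 8 genes with a window in the table, 7 held ACGTG or GCGTG and 3 held ACGTG. Among all 35116 windows of this length, 48.4% held either core and 21.4% held ACGTG. The HIF1A, EPAS1 and ADM windows each held 1 GCGTG and the CA12 window 2, while the window of EGLN3 held neither core. The EGLN3 window, chr14:33951025-33951324, and the EPAS1 window, chr2:46297157-46297456, lie inside the gene spans given below. Other starts of these genes were not searched. VEGFA and NDRG1 had no window in the table. These windows are rich in G and C, with 62.0% to 80.7% against a median of 58.7% over all windows, and how the matches vary with this content was not tested. A match describes the letters only.

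The totals on genes ran from 39824898 to 47297970 counts in shControl and from 11334133 to 24072396 counts in shYEATS2, so depth and knockdown cannot be told apart by design. Levels are given as CPM, counts scaled to a common library size after TMM correction for library composition. Each comparison is edgeR's quasi-likelihood test over 17058 genes, and a gene is called where its p after Benjamini-Hochberg adjustment is under 0.05. The study speaks in general of biological replicates, while the labels of these libraries do not say whether they came from separate cultures. The p-values measure the spread between these libraries, which may be technical. For 1 gene at a time, exact permutation of 2 libraries against 2 has 0.333 as its smallest two-sided p. YEATS2 mRNA was 66.1 and 66.7 CPM in shControl and 29.2 and 29.1 CPM in shYEATS2. Of the 10 epithelial markers, KRT19 was at 0 in every library and TP63 stayed under 1 CPM. Of the 8 tested, 6 were called lower and only CDH1 higher, beside 23.6% lower and 22.6% higher over all tested genes. With library totals alone 5 of the 8 were lower and 2 higher. CDH1 had means of 0.335 CPM in shControl and 2.48 CPM in shYEATS2. KRT8 and KRT18 had 266 and 111 CPM in shControl and 119 and 75.3 CPM in shYEATS2. KRT5, singled out after its values were seen, fell most, from a mean of 15.7 CPM to 1.19 CPM. DSP had means of 5.73 and 1.47 CPM, and EPCAM, KRT14 and DSG3 were below DSP in shControl. The sum of the list thus rests mostly on KRT8 and KRT18. The summed level of the list was 399 to 406 CPM in shControl and 196 to 210 CPM in shYEATS2. The summed level of 10 fibroblast markers, collagen genes among them, was 7460 to 7550 CPM in shControl and 2290 to 2420 CPM in shYEATS2. Of the 9 tested, 8 were called lower, beside the same 23.6% over all tested genes. Of the endothelial markers 8 of 10, and of the immune markers 9 of 10, were under 1 CPM in every library. These marker levels moved with the knockdown, as did the genes below, and their part in the results was not tested. In RNA from whole cultures, fewer cells of a type and less RNA per cell cannot be told apart.

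After YEATS2 knockdown, 5 of the 10 genes were lower (EGLN1, EGLN3, CA9, NDRG1 and BNIP3), 2 were higher (EPAS1 and VEGFA), and HIF1A, CA12 and ADM did not pass the test. Over all tested genes 23.6% were called lower and 22.6% higher, together 46.2%. Of the genes tested under every setting CA9 fell most, to 39.4% of the control level, and the rises were 1.14-fold for EPAS1 and 1.18-fold for VEGFA. Their median on the log2 scale was −0.24, beside −0.01 over all tested genes. In 7 of the genes both shYEATS2 values were under both shControl values and in 2 they were over them, against 36.3% and 35.3% of all tested genes. With every library thinned to the smallest total, EGLN3 could no longer be tested, 4 of the other 9 genes were lower and 2 higher, and their median was −0.09. With at least 10 counts asked of every library EGLN3 dropped out as well, and the median was −0.13, again with 4 lower and 2 higher. Scaling by library totals alone, which shifted all tested genes to a median of 0.13, called 4 of the 10 genes lower and 3 higher. Under that scaling 32.1% of all calls were lower, against 51.0% with TMM scaling.

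**Figure D1:**
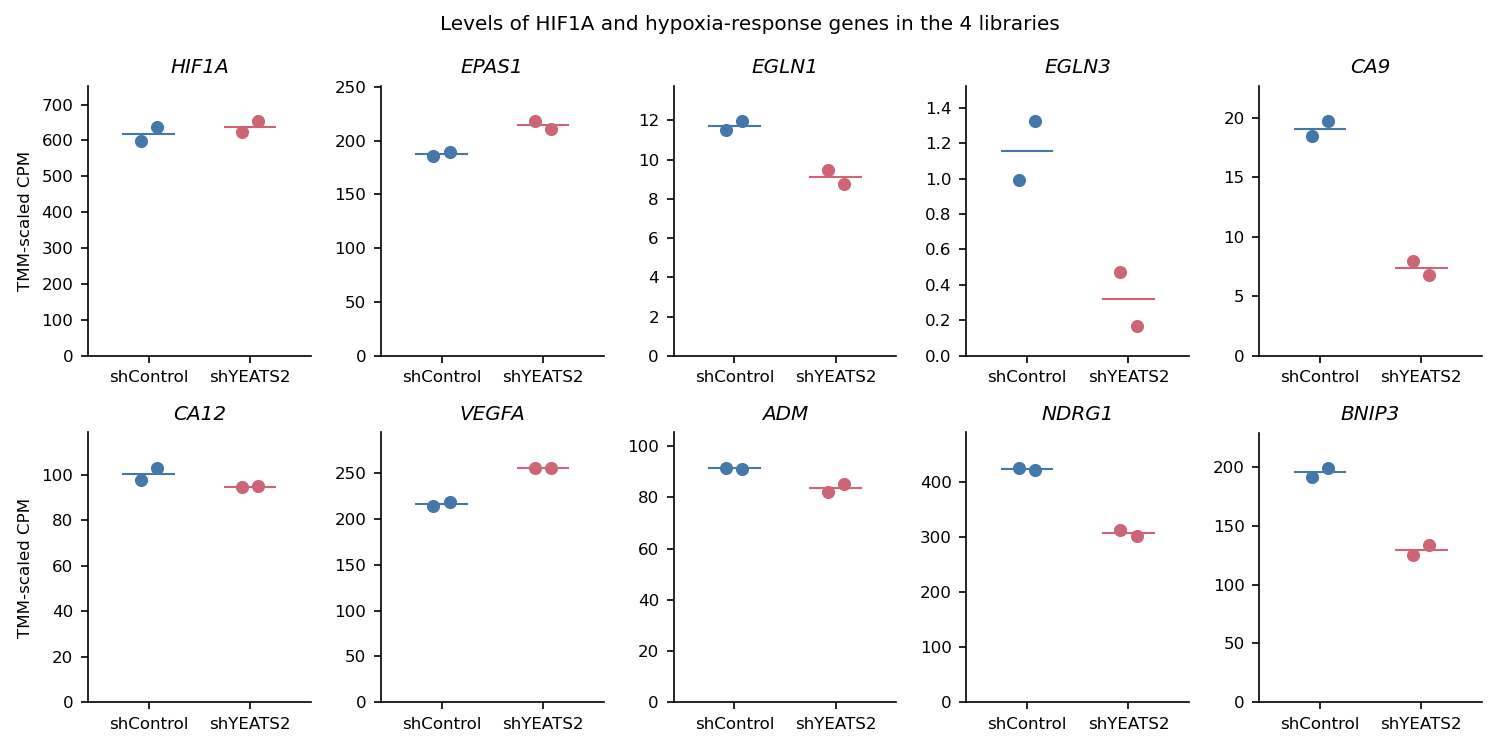
Each panel gives the TMM-scaled CPM of a gene (y axis, starting at 0) in the 2 shControl libraries (blue) and the 2 shYEATS2 libraries (red), with a horizontal line at the mean of each condition. The libraries of the conditions overlap for HIF1A, from 599 to 638 CPM and from 623 to 654 CPM, and are separate for CA9, at 18.5 and 19.7 CPM against 7.93 and 6.79 CPM.

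HIF1A (ENSG00000100644) encodes the alpha subunit found in most cell types and lies at chr14:61695513-61748259 on the plus strand of GRCh38. Its level was 599 and 638 CPM in shControl and 623 and 654 CPM in shYEATS2. The ranges of the conditions overlapped, and the difference was smaller than that between the shControl libraries. The log2 fold change was 0.05 ± 0.06 (SE), with a 95% interval from −0.07 to 0.16 (edgeR adjusted p = 0.549). With library totals alone it was 0.18 and passed the test (edgeR adjusted p = 0.00970). By level HIF1A stood at percentile 99.0 of the tested genes.

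EPAS1 (ENSG00000116016), which encodes the other alpha subunit, HIF-2α, lies at chr2:46293667-46386697 on the plus strand. It was measured at 186 and 190 CPM in shControl and at 218 and 211 CPM in shYEATS2. Both shYEATS2 libraries were above both shControl libraries, by a margin that was small beside the level. For EPAS1 the log2 fold change was 0.19 ± 0.06 (SE, edgeR adjusted p = 0.00627), or 114% of the control level. Without shControl replicate 1 it was 0.18 (adjusted p = 0.121) and without shControl replicate 2 it was 0.21 (adjusted p = 0.0616), so that neither fit kept the call, and it was also lost without a filter on low counts (edgeR adjusted p = 0.0910).

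The partners of the alpha subunits moved in opposite directions. ARNT, the usual partner, was 56.3 and 58.8 CPM in shControl and 37.9 and 39.5 CPM in shYEATS2, and its log2 fold change was −0.58 ± 0.08 (SE, edgeR adjusted p = 2.31e-09). ARNT2, a close relative that can take its place, was 16.4 and 18.0 CPM in shControl and 24.0 and 27.2 CPM in shYEATS2, with a log2 fold change of 0.56 ± 0.10 (SE, edgeR adjusted p = 1.76e-06). The difference between the responses of ARNT and ARNT2 was not itself tested. In shYEATS2 cells ARNT was thus 67.1% and ARNT2 148% of the control level. The inhibitory relative HIF3A was too low for a test, at no more than 0.212 CPM in any library. HIF1A-AS1, an antisense RNA over the start of the HIF1A locus that was singled out after its values were seen, was 1.06 and 1.64 CPM in shControl and 2.09 and 3.22 CPM in shYEATS2 (log2 fold change 0.92, edgeR adjusted p = 0.00676). The call was lost with DESeq2 (adjusted p = 0.0576) and without shControl replicate 1 (edgeR adjusted p = 0.121) or shYEATS2 replicate 2 (edgeR adjusted p = 0.133). It shares 133 exon bases with HIF1A on the opposite strand, and the strand setting of the counting is not given in the sources used here.

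EGLN1 (ENSG00000135766, PHD2), regarded as the main hydroxylase of HIF1A at normal oxygen, lies at chr1:231363751-231422287 on the minus strand. Its level was 11.5 and 12.0 CPM in shControl and 9.47 and 8.74 CPM in shYEATS2. The conditions did not overlap, although the fall was modest. The log2 fold change was −0.35 ± 0.12 (SE, edgeR adjusted p = 0.0152). The call was lost with DESeq2 (adjusted p = 0.116), with library totals alone (edgeR adjusted p = 0.143), and without shControl replicate 1 (adjusted p = 0.0622) or replicate 2 (adjusted p = 0.113). In GENCODE release 44 a protein-coding read-through gene shares 3004 of the 5381 merged exon bases of EGLN1 on the same strand. The canonical transcript of EGLN1 has 4335 bases. The files tally ambiguous read pairs apart from the genes, and how many of those belong to EGLN1 was not tested.

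EGLN3 (ENSG00000129521, PHD3), a hydroxylase that is itself a target of HIF, lies at chr14:33924227-34462774 on the minus strand. It was counted 45 and 50 times in shControl and 12 and 2 times in shYEATS2, or 0.992 and 1.32 CPM against 0.474 and 0.170 CPM. Both shYEATS2 libraries were lower, at levels close to the limit of the test. EGLN3 met the filter on low counts in both shControl libraries and in shYEATS2 replicate 1 but not in shYEATS2 replicate 2. It could not be tested with thinned counts or with at least 10 counts in every library. This was a log2 fold change of −1.63 ± 0.46 (SE), with a wide 95% interval from −2.55 to −0.71 (edgeR adjusted p = 0.00259). It was −1.28 without shYEATS2 replicate 2 and −2.74 without shYEATS2 replicate 1.

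EGLN2, the third hydroxylase, was 4.25 and 4.08 CPM in shControl and 2.37 and 5.01 CPM in shYEATS2, and did not pass the test (log2 fold change −0.31, edgeR adjusted p = 0.277). Without shYEATS2 replicate 2 its log2 fold change was −0.82 and passed the test (edgeR adjusted p = 0.00556). A read-through gene shares 2012 of the 6574 merged exon bases of EGLN2 on the same strand, while the canonical transcript of EGLN2 has only 2100 bases. How many of the ambiguous read pairs belong to EGLN2 was not tested, and its low counts carry this limit. In the list of 10 further genes of oxygen sensing and HIF degradation, 2 were lower, 4 were higher and 4 did not pass the test. The shares over all tested genes were 23.6% lower and 22.6% higher. The median log2 fold change of the list was −0.08. It turned to 0.05 with library totals alone and to 0.12 without shYEATS2 replicate 1. The counts were 1 lower and 2 higher without shControl replicate 1, and 2 lower and 2 higher without shControl replicate 2. Without shYEATS2 replicate 1 they were 1 lower and 4 higher, and without a filter 3 lower and 2 higher. The largest changes were the rises of SIAH2 and SIAH1, ubiquitin ligases that act on EGLN proteins, with log2 fold changes of 0.52 and 0.40, and the fall of RBX1, the RING subunit of the VHL ligase, with −0.43. VHL, the receptor of the hydroxylated alpha subunit, was named after its values were seen and was 44.8 and 46.8 CPM in shControl and 53.2 and 54.0 CPM in shYEATS2, 0.22 higher on the log2 scale (edgeR adjusted p = 0.00980). That call was lost without a filter (edgeR adjusted p = 0.0814) and without shControl replicate 1 (adjusted p = 0.178) or replicate 2 (adjusted p = 0.0598).

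Over all tested genes 23.6% were called lower and 22.6% higher. Of 10 coactivators and inhibitors of HIF, 3 were lower, 3 were higher and 4 did not pass the test. The count of higher genes was 1 without shControl replicate 1, shControl replicate 2 or shYEATS2 replicate 1, and 1 with DESeq2, with thinned counts and without a filter, and it was 2 without shYEATS2 replicate 2. CITED2, which competes with HIF1A for p300, rose from 132 and 138 CPM in shControl to 208 and 211 CPM in shYEATS2, a log2 fold change of 0.63 ± 0.06 (SE). PKM and the chaperone HSP90AA1, which stabilizes HIF1A, fell with log2 fold changes of −0.60 and −0.51. CITED2 is itself a HIF target and stands in the list of targets as well, and PKM stands in the list of glycolytic targets.

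**Figure D2:**
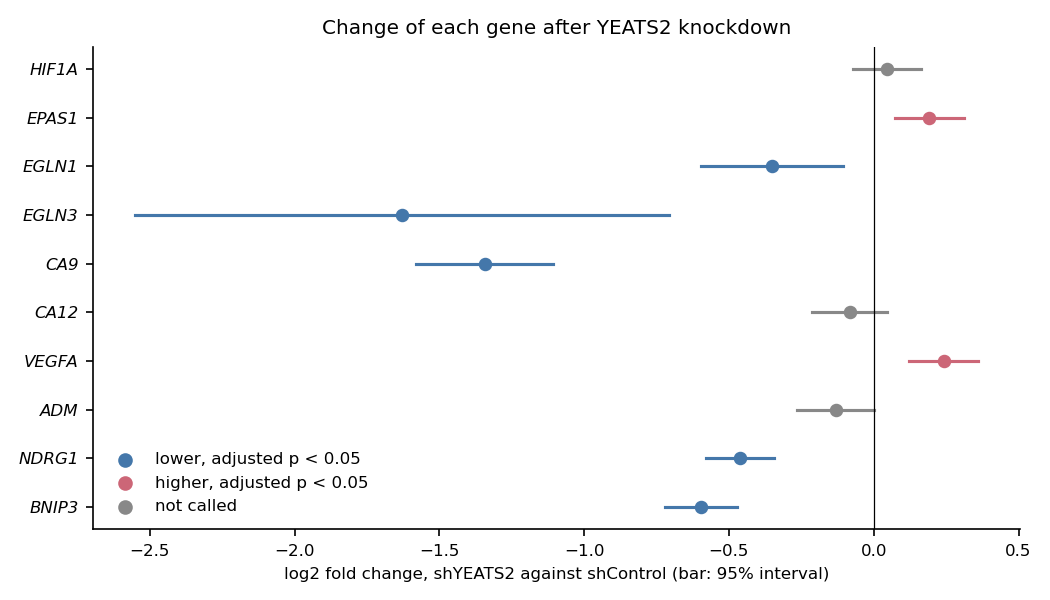
The x axis gives the log2 fold change of shYEATS2 against shControl for each of the 10 genes, as a point with its 95% interval from edgeR, in blue where called lower, red where called higher and grey where not called. EGLN3 has the widest interval, from −2.55 to −0.71, and the CA9 interval, from −1.58 to −1.11, lies apart from those of NDRG1 and BNIP3.

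CA9 (ENSG00000107159) encodes carbonic anhydrase IX, which turns carbon dioxide into bicarbonate and protons at the cell surface, and lies at chr9:35673928-35681159 on the plus strand. Its level was 18.5 and 19.7 CPM in shControl and 7.93 and 6.79 CPM in shYEATS2. Both shYEATS2 libraries were below the level of both shControl libraries by more than 10 CPM. The log2 fold change was −1.34 ± 0.12 (SE, edgeR adjusted p = 2.10e-15), which left 39.4% of the control level. This change was larger in size than that of 93.4% of the tested genes. Over the alternative settings it stayed between −1.39 and −1.21, and between −1.50 and −1.27 when a library was left out. CA9 shares 571 of its 1598 merged exon bases with ARHGEF39 on the opposite strand, and without a stated strand setting the reads of the pair cannot be told apart there.

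CA12 (ENSG00000074410) encodes carbonic anhydrase XII, a membrane enzyme with the same reaction, and lies at chr15:63321378-63381846 on the minus strand. It was 97.8 and 103 CPM in shControl, and in shYEATS2 the mean was 94.8 ± 0.320 CPM (SD, n = 2). The shYEATS2 libraries were below both controls, with a gap smaller than the distance between the controls. Its log2 fold change was −0.08 ± 0.07 (SE), with a 95% interval from −0.21 to 0.05 (edgeR adjusted p = 0.307), and it was 0.05 with library totals alone. CA5B, a mitochondrial enzyme, was called higher, with a log2 fold change of 0.51, a call that was lost without shYEATS2 replicate 1 (edgeR adjusted p = 0.0996). CA11 and CA13, at 9.60 and 7.07 CPM in shControl, had log2 fold changes of 0.03 and 0.08 and were not called. BSG, the chaperone of the lactate exporters and a part of the same list of pH regulators, fell with a log2 fold change of −0.55. Beside 23.6% lower and 22.6% higher over all tested genes, 2 of the 9 tested here besides CA9 and CA12 were lower and 2 higher. Without shControl replicate 1 these counts were 1 and 1, without shYEATS2 replicate 1 they were 2 and 1, and without shYEATS2 replicate 2 they were 3 and 2.

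VEGFA (ENSG00000112715), the main angiogenic growth factor, lies at chr6:43770184-43786487 on the plus strand. It was 213 and 218 CPM in shControl and 255 and 256 CPM in shYEATS2. The shYEATS2 libraries were almost equal to each other and both higher than the controls. Its log2 fold change was 0.24 ± 0.06 (SE, edgeR adjusted p = 5.18e-04), or 118% of the control level, and it passed the test under all 14 alternatives that were run. The ligand VEGFB went the other way, with a log2 fold change of −0.21 (edgeR adjusted p = 0.0286), and this call was lost with library totals alone (edgeR adjusted p = 0.460), thinned counts (edgeR adjusted p = 0.205) and DESeq2 (adjusted p = 0.122), and without shControl replicate 1 (adjusted p = 0.235), shControl replicate 2 (adjusted p = 0.116) or shYEATS2 replicate 1 (adjusted p = 0.0675). VEGFC, VEGFD and PGF, with log2 fold changes of 0.12, −0.06 and −0.10, did not pass the test, although VEGFC did with library totals alone (0.26, edgeR adjusted p = 0.0140). Among the receptors, KDR (VEGFR2) was 33.8 and 35.1 CPM in shControl and 17.0 and 17.4 CPM in shYEATS2, which left 49.8% of the control level (edgeR adjusted p = 1.11e-14). KDR is also an endothelial marker, while 8 of the 10 endothelial markers were under 1 CPM throughout. The coreceptor NRP1 rose from 365 and 377 CPM to 501 and 524 CPM, a log2 fold change of 0.47.

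ADM (ENSG00000148926), which encodes the vasodilator peptide adrenomedullin, lies at chr11:10305073-10307397 on the plus strand. Its level was 91.6 and 91.2 CPM in shControl and 81.9 and 85.4 CPM in shYEATS2. Both shYEATS2 libraries were lower, at 91.3% of the control level by the fitted fold change. For ADM the log2 fold change was −0.13 ± 0.07 (SE) and did not pass the test (edgeR adjusted p = 0.0992). Without shYEATS2 replicate 2 it was −0.16 and passed (edgeR adjusted p = 0.0182), as it did without a filter on low counts (−0.18, edgeR adjusted p = 0.0407), and with library totals alone it was 0.0026. The related peptide gene ADM2 was 2.58 and 2.83 CPM in shControl and 21.7 and 22.5 CPM in shYEATS2 (log2 fold change 3.03). Of the receptor parts, CALCRL rose with a log2 fold change of 0.65. Among its partners, RAMP3 was at 0 in every library and RAMP2 was at no more than 0.170 CPM. RAMP1, another partner, was singled out after its values were seen. It fell from 8.69 and 7.22 CPM to 2.96 and 1.61 CPM, a log2 fold change of −1.68 (edgeR adjusted p = 5.88e-11). Which receptor these parts form here was not tested.

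NDRG1 (ENSG00000104419), a cytoplasmic stress protein strongly induced by hypoxia and by iron depletion, lies at chr8:133237175-133302022 on the minus strand. It was measured at 427 and 423 CPM in shControl and at 314 and 303 CPM in shYEATS2. The distance between the conditions was many times that between the libraries of either condition. For NDRG1 the log2 fold change was −0.46 ± 0.06 (SE, edgeR adjusted p = 5.30e-10), which left 72.6% of the control level, and the call was kept under all 14 alternatives. In the same family NDRG3 fell from 93.5 and 94.9 CPM to 75.9 and 75.6 CPM, a log2 fold change of −0.31 (edgeR adjusted p = 6.89e-05). NDRG4, at 13.2 CPM in shControl, had a log2 fold change of −0.0091, and NDRG2 stayed under 1 CPM, with −1.25 and an edgeR adjusted p of 0.0593. The NDRG2 value passed the test with limma-voom (adjusted p = 0.0493) and without shControl replicate 1 (−1.58, edgeR adjusted p = 0.0292) or shYEATS2 replicate 1 (−2.98, edgeR adjusted p = 0.0333).

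BNIP3 (ENSG00000176171), a mitochondrial outer membrane protein that marks mitochondria for autophagy, lies at chr10:131967684-131981967 on the minus strand. Its level was 191 and 199 CPM in shControl and 125 and 134 CPM in shYEATS2. The conditions were well apart and the libraries within each were close. This was a log2 fold change of −0.60 ± 0.06 (SE, edgeR adjusted p = 1.12e-12), which left 66.2% of the control level, and again the call was kept under all 14 alternatives. BNIP3L, its closest relative and also a mitophagy receptor, had a log2 fold change of −0.18 (edgeR adjusted p = 0.0152). That call was lost with library totals alone (edgeR adjusted p = 0.527), with thinned counts (edgeR adjusted p = 0.0793) and without shControl replicate 1 (adjusted p = 0.0655) or replicate 2 (adjusted p = 0.242). In the list of 10 further mitophagy and autophagy genes tested, 4 were lower and 4 were higher, beside 23.6% and 22.6% over all tested genes. With library totals alone and without shControl replicate 2 the counts were 2 lower and 4 higher. BCL2L13, another mitophagy receptor, rose with a log2 fold change of 0.72, and MAP1LC3B, the autophagosome protein that such receptors bind, with 0.65.

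To compare levels between genes, CPM was divided by the length of the canonical transcript of each gene in kilobases. In shControl the order was HIF1A (152 and 162 CPM per kb), NDRG1 (141 and 140), BNIP3 (124 and 129), ADM (61.4 and 61.1), VEGFA (59.1 and 60.5), EPAS1 (36.1 and 36.8), CA12 (16.0 and 16.9), CA9 (11.9 and 12.8), EGLN1 (2.65 and 2.76) and EGLN3 (0.367 and 0.489). The libraries of neighbouring genes did not overlap in this order. EGLN1 shares 3004 exon bases with a read-through gene on the same strand. Its level here leaves out any pairs tallied as ambiguous, and the effect on its place was not tested. ADM and VEGFA were the closest neighbours, with means of 61.3 and 59.8 CPM per kb, a difference that was not tested and that also depends on the transcript chosen for the length. In shYEATS2 HIF1A remained first (158 and 166 CPM per kb), followed by NDRG1 (104 and 100) and BNIP3 (81.0 and 86.8). VEGFA (70.6 and 70.8) then stood above ADM (54.9 and 57.2), while the other genes kept their places.

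Beyond the 10 genes, 45 other non-glycolytic HIF targets were tested, of which 17 were lower, 13 were higher and 15 did not pass the test. The shares over all tested genes were 23.6% lower and 22.6% higher. The median log2 fold change of the 45 targets was −0.12, and 0.01 with library totals alone, with values on both sides. With library totals alone 12 were lower and 14 higher, so that the balance of the calls turned. HMOX1, heme oxygenase, fell most, from 177 and 185 CPM in shControl to 46.9 and 42.0 CPM in shYEATS2, a log2 fold change of −2.02. NT5E, the enzyme that makes extracellular adenosine, rose most, from 35.3 and 38.7 CPM to 120 and 124 CPM, a log2 fold change of 1.72. The third of the largest changes was in PPFIA4, with −1.51. The following genes were named after their values were seen. MIR210HG, the host transcript of the hypoxia-regulated miR-210, went from 7.67 and 7.75 CPM to 3.16 and 4.50 CPM (log2 fold change −1.08, edgeR adjusted p = 1.74e-07). AK4, a mitochondrial adenylate kinase, and BHLHE40, a transcriptional repressor, fell with −1.06 and −0.82, and ANGPTL4, a lipase inhibitor, rose with 1.17.

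Of the enzymes in this list that modify collagen, grouped after their values were seen, 5 were called lower and LOX was called higher. The shares over all tested genes were 23.6% lower and 22.6% higher. The prolyl 4-hydroxylase subunits P4HA1 and P4HA2 had log2 fold changes of −0.70 and −0.91, the lysyl hydroxylases PLOD1 and PLOD2 −0.29 and −0.93, and the cross-linking enzyme LOXL2 −0.21. The LOXL2 call was lost with library totals alone (edgeR adjusted p = 0.300) and without shControl replicate 1 (edgeR adjusted p = 0.0595). LOX, which cross-links collagen as well, rose from 182 and 188 CPM to 253 and 267 CPM, 0.49 on the log2 scale. The collagen genes of the fibroblast list fell in the same libraries, and their part in these values was not tested.

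**Figure D3:**
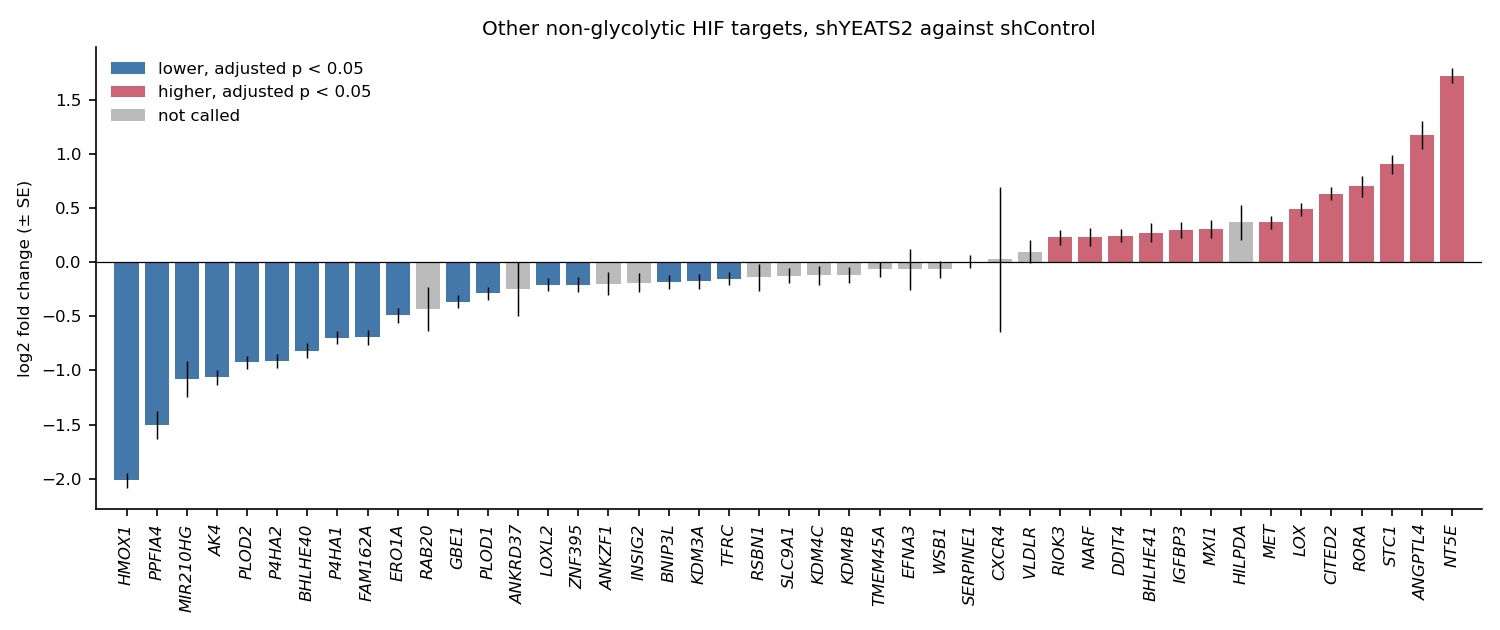
Bars give the log2 fold change (y axis) of shYEATS2 against shControl for the 45 tested genes of the list of other non-glycolytic HIF targets, ordered by value, with the standard error as a line. The 17 blue bars were called lower and the 13 red bars higher, from −2.02 for HMOX1 to 1.72 for NT5E.

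The glycolytic HIF targets were mostly lower, with 15 of 21 lower, 3 higher and 3 not called. Over all tested genes the shares were 23.6% lower and 22.6% higher. The median log2 fold change of the glycolytic targets was −0.39, and −0.26 with library totals alone. Among those with means of 10 CPM or more, PGAM1 and GPI had the largest falls, with log2 fold changes of −0.88 and −0.77, and the glucose transporter SLC2A3 rose with 0.78. The 15 include ALDOC and ALDOA at low counts. ALDOA was counted 145 and 96 times in shControl and 45 and 18 times in shYEATS2. Another gene on the same strand shares 1639 exon bases with ALDOA, whose canonical transcript has 1640 bases, and the effect on its counts was not tested. Another list held 17 genes of the response of ATF4, the factor of the amino-acid and ER stress response, with ATF4 itself among them. Of the 17 genes, 14 were higher and 0 were lower, with a median log2 fold change of 1.40. By the unadjusted p, too, none of the 17 was lower with p under 0.05, and neither DESeq2 nor limma-voom called any of them lower, while without shYEATS2 replicate 1 edgeR called 1 lower, PHGDH. ATF4, one of the 14 and named after its values were seen, went from 189 and 185 CPM in shControl to 407 and 382 CPM in shYEATS2. ADM2 stands in the ATF4 list too. DDIT4 and VLDLR stand in the ATF4 list as well as in the list of other HIF targets, and none of the 10 genes stands in the ATF4 list.

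**Figure D4:**
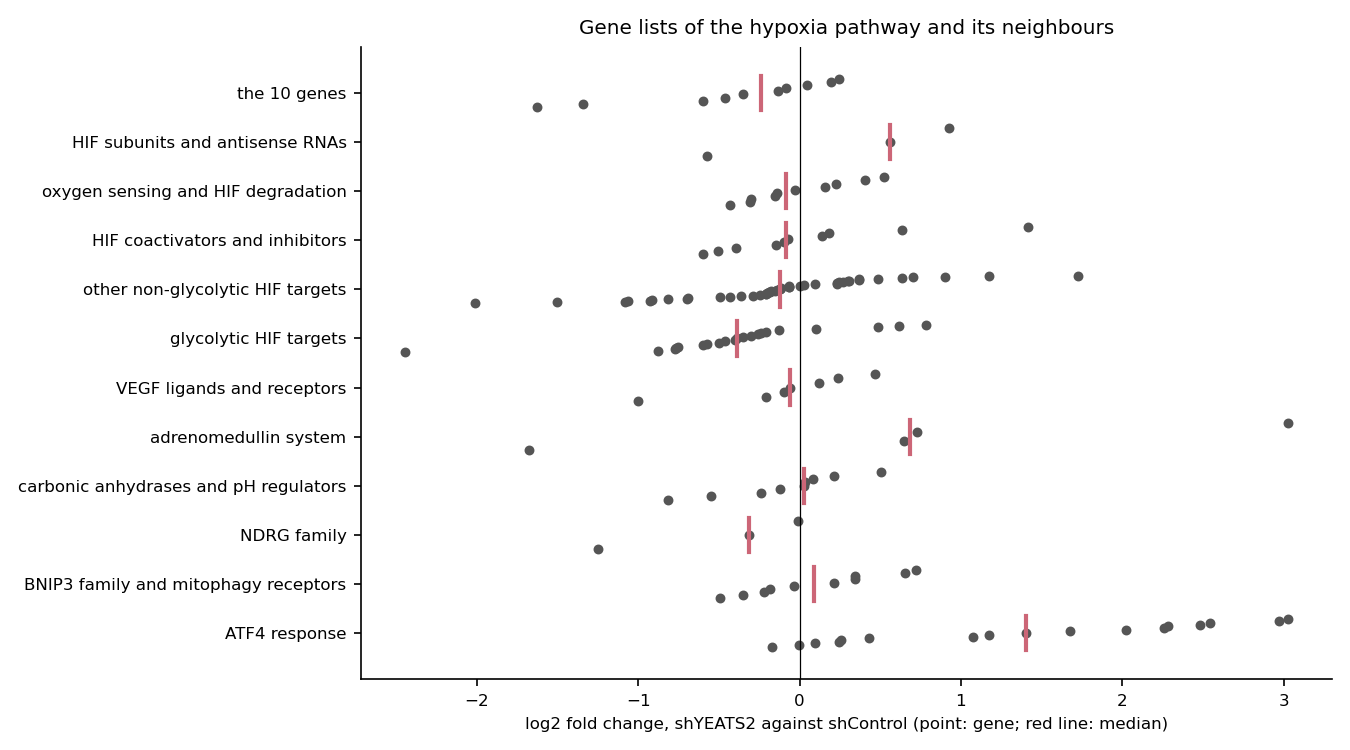
Each point is the log2 fold change of a tested gene (x axis) in the list named on the y axis, with the 10 genes left out of all lists but their own, and each red line is the median of a list. The median of the glycolytic targets is −0.39 and that of the ATF4 list 1.40, while the other non-glycolytic targets spread on both sides of their median of −0.12.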

How the data were processed

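For the 4 libraries the authors deposited raw counts per Ensembl gene, made with STAR on GRCh38 and HTSeq from paired reads of a stranded mRNA kit. Neither annotation release nor strand setting is given in the sources used here. The tallies of read pairs given to no gene (ambiguous pairs were 4.31% to 4.61%) were left out. After filterByExpr and TMM scaling, conditions were compared by the quasi-likelihood test of edgeR 4.0.16 (robust glmQLFit) under R 4.3.3, without a replicate block, since same-numbered libraries did not deviate together (correlation −0.018). Alternatives were run with DESeq2 1.42.0, limma 3.58.1, other scalings and filters, thinned counts, a block and each library left out. The test was also run on simulated counts with a small share of changed genes, as many up as down. That setting differs from these data, where 46.2% of genes were called, so it cannot show how the test performs here. Positions, lengths and overlaps came from GENCODE release 44, and promoter windows from RefSeq. The 10 genes and the lists were chosen with earlier results of these data known. Named genes were the 10, their relatives in the HIF, EGLN, NDRG, BNIP3 and VEGF families, and the 3 largest called changes of each list at a mean of at least 10 CPM with separate conditions. Marker lists are given by their sums.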

Additional observations from a re-analysis of the deposited data

How the results depend on the processing

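CA9, VEGFA, NDRG1 and BNIP3 kept their direction and call under the 14 alternatives, and EGLN3 under the 12 in which it had enough counts. Counts of the 10 genes called lower ran from 4 to 6. Those called higher ran from 1 to 3, with 1 where no filter was used and 1 to 2 where a library was left out. A replicate block gave 5 lower and 2 higher, as without it, and changed no call of the 10 genes. Over all genes, library totals alone called 2567 lower, against 4019. Changes of sign all concerned genes that had not passed the test. On the log2 fold change scale, CA12 under library totals alone was at 0.0506, ADM at 0.0026, NDRG4 at 0.13, VEGFD at 0.0754 and PGF at 0.0374. Without a filter HIF1A was at −0.0036. NDRG4 was at 0.0012 with upper quartiles, 0.0034 with limma-voom and 0.0048 with thinned counts, VEGFD at 0.0563 with DESeq2 and PGF at 0.15 with thinned counts. With 1 library left out, the log2 fold change of EGLN2 ran from −0.82 to 0.25, NDRG4 from −0.24 to 0.11, VEGFD from −0.71 to 0.64 and PGF from −0.57 to 0.12. The cause of these moves was not tested. In such a fit the lone library of a condition is assumed to vary like the others. The 11334133 counts of shYEATS2 replicate 2 limit genes near 1 CPM, such as EGLN3.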

Other observations

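By the distance between centred log2 CPM values over the 4 libraries, among 9364 other genes whose mean was 10 CPM or more, the genes nearest to HIF1A were TRAM1, ERLEC1 and SEC23IP, with log2 fold changes of 0.05, 0.04 and 0.05. Those nearest to EPAS1 were BRD8, COA1 and AAGAB, with log2 fold changes of 0.20, 0.20 and 0.18. BNIP3P1, a processed copy of BNIP3, was counted 62 and 48 times in shControl and 15 and 6 times in shYEATS2, which is under 1% of the BNIP3 count of each library.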
